A study of Mus musculus with 11 samples.

Results

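The dopamine receptor genes Drd2, Drd3, Drd4 and Drd5 were taken by name, as 4 of 22380 annotated protein-coding genes, and every open chromatin region overlapping the gene body or the 20 kb on either side of it was assigned to the gene. These 4 windows held 21 of the 131942 regions listed in the series. Dopamine receptors are G protein-coupled receptors. Drd5 encodes a D1-like receptor, which stimulates adenylyl cyclase through Gs-type proteins, whereas Drd2, Drd3 and Drd4 encode D2-like receptors, which inhibit it through Gi/o proteins. The D2 receptor is also the autoreceptor through which midbrain dopaminergic (DA) neurons sense their own transmitter.

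Chromatin accessibility was profiled by ATAC-seq, in which a transposase inserts sequencing adapters into open DNA, in DA neurons (3 libraries) and serotonergic (5-HT) neurons (2 libraries) of mouse embryos at E14.5. DA neurons were GFP-positive cells sorted from ventral mesencephalon of TH-GFP embryos, a line kept on C57BL/6J in which the Th promoter drives GFP. 5-HT neurons were YFP-positive cells sorted from rhombomeres 1 to 3 of Mash1-CRE x ROSA YFP embryos, and for either genotype transgenic males had been mated with Swiss wild-type females. The first gate therefore follows activity of the Th promoter and the second a Cre lineage, each library came from its own sort, and the litters are not given, so that p-values measure only the spread between these samples.

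Libraries differed in how many peaks they held. Of the 131942 regions, 52861, 93055 and 94351 had a peak in DA replicates 1, 2 and 3, against 38772 and 22879 in 5-HT replicates 1 and 2. Every DA library thus held more peaks than either 5-HT library. The 5-HT libraries were made from fewer sorted cells, and read depth was not analysed here, so cell type, cell number and number of peaks cannot be told apart. A region has a peak in a library when its score, a number whose scale is not named, is above 0. The lowest score above 0 was 3.45, 3.04 and 3.03 in the DA libraries and 3.37 and 2.83 in the 5-HT libraries, in replicate order, and the median score of a peak was 5.12, 4.44, 4.01, 4.48 and 3.69. Scores were therefore also placed by their percentile among the peaks of the same library and by their rank from its highest score. Rank, unlike percentile, is not moved by how many weak peaks a library holds, but it cannot exceed the number of its peaks, so a weak peak ranks ahead in a short list by construction. The groups are therefore compared by rank only where all ranks of a region lie within the 22879 peaks of the smallest library.

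Promoters of marker genes were read first as a check of the labels, against 59.7%, 63.6% and 61.9% of all protein-coding promoters open in DA replicates 1 to 3 and 58.2% and 49.5% in 5-HT replicates 1 and 2. All 13 DA neuron markers had a promoter peak in each of the 3 DA libraries, against 9 and 8 in the 5-HT libraries, and Th, Lmx1a and Aldh1a1 had one in the 3 DA libraries and in no 5-HT library. Of 7 markers of 5-HT neurons, 5, 6 and 5 had a promoter peak in the DA libraries and 5 and 3 in the 5-HT libraries. Tph2, which encodes the rate-limiting enzyme of serotonin synthesis in neurons, was open in all 5 libraries. Slc6a4, the serotonin transporter gene, was open in each DA library and neither 5-HT library, while Fev, encoding a transcription factor of 5-HT neurons, had a promoter peak only in 5-HT replicate 1. Gata2 was open in 5-HT replicate 1 (percentile 41.7) and DA replicate 2 (4.2), and Gata3 in all 5 libraries, with its highest percentile, 95.5, in 5-HT replicate 2. Htr1a and Lmx1b, the latter counted in both the DA and the 5-HT list, were open in each DA library and in 1 of the 5-HT libraries. By count the DA markers thus separated the libraries by label, but so did all protein-coding promoters, and 7 of the 13 DA markers were open in all 5 libraries. The 5-HT markers differed among themselves in direction.

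Other cell types were read in the same way, in replicate order with DA libraries first. GABAergic markers were open at 4, 5, 4, 4 and 3 of 5 promoters, and glutamatergic ones at 1, 2, 2, 2 and 0 of 3. Noradrenergic markers were open at 0, 2, 1, 0 and 0 of 4 promoters, with no peak at Dbh in any library. Glial markers were open at 2, 5, 4, 3 and 3 of 5 promoters, endothelial and pericyte markers at 1, 2, 2, 1 and 0 of 4, and none of the 3 microglial markers had a promoter peak in any library. DA replicate 2 was highest or tied for highest in each list with any peak, as it was for all protein-coding promoters, and the part of these cells in the receptor peaks was not tested.

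The regions around the 4 receptor genes were sorted by their place and by the libraries that held them. Among the 21 regions, 17 were distal, 3 lay at a receptor promoter (the 1 kb before an annotated start and the 100 bp after it), and 1 lay at the promoter of Sct, the neighbouring secretin gene. The shares of these classes over all regions are not given here, so these counts set nothing apart. A peak was present in 1 library only for 11 of 21 regions, against 44.5% of all regions, and 5 of these 11 came from DA replicate 2. Without DA replicate 2, 16 of the 21 regions and 108995 of all 131942 regions were still open in a library, so this count sets nothing apart. Of the 21 regions, 4 were open in all 5 libraries and 1 in the 3 DA libraries and no 5-HT library. Among all regions the shares were 12.8% and 13.4%, or 2.68 and 2.80 per 21 regions, so counts this small set nothing apart. The 4 shared regions were the promoters of Drd2 and Drd5, an intronic region of Drd3 and a region upstream of Drd5, and the DA-restricted one lay in Drd2 intron 1. The DA-restricted count was 3 of 20 without DA replicate 1, against 25.5% of all regions open in the other libraries, and 2 of 19 without 5-HT replicate 1, against 21.6%.

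**Figure D1:**
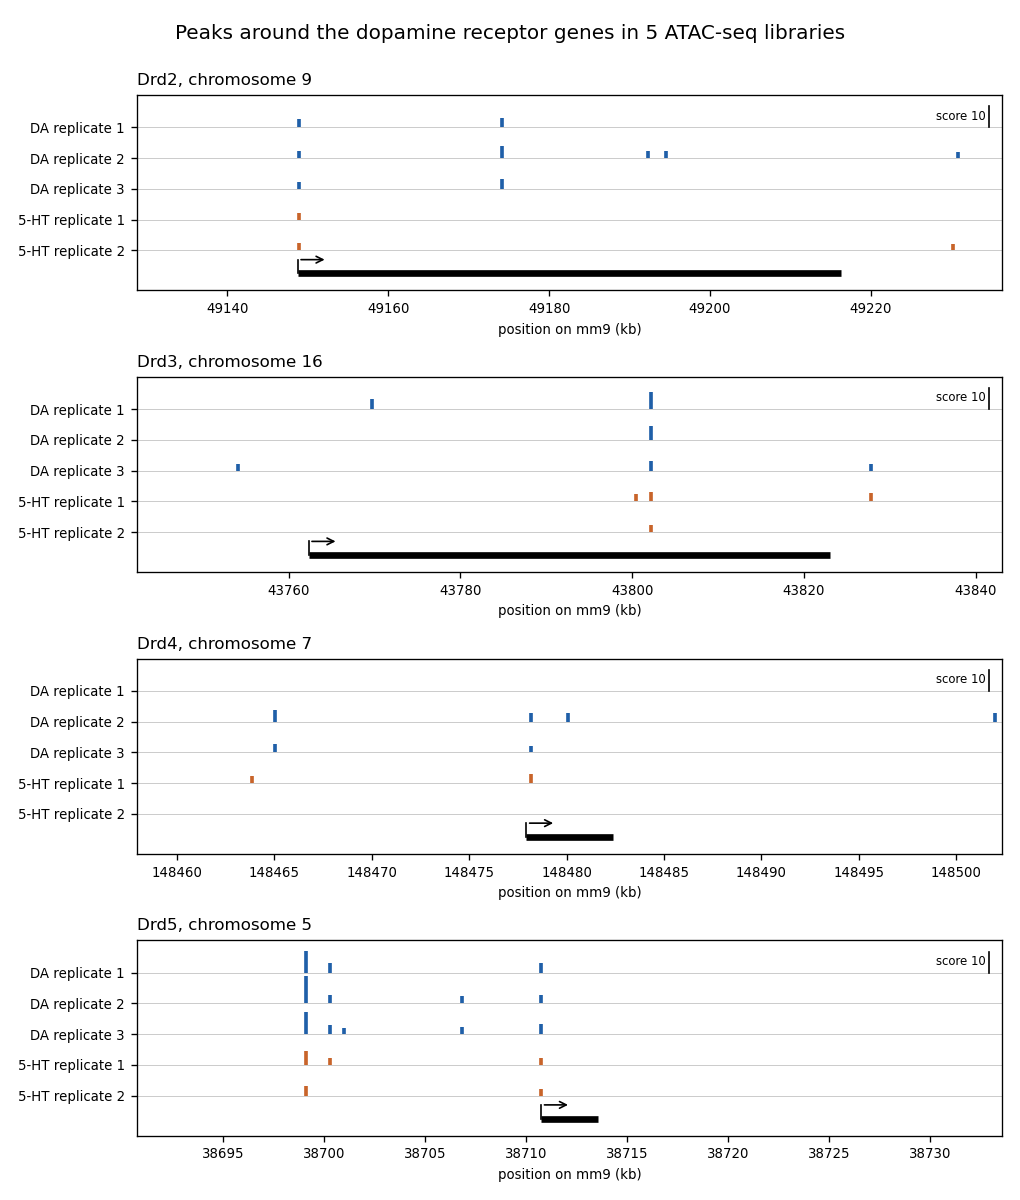
Peaks in the windows of Drd2, Drd3, Drd4 and Drd5, with position on mm9 (kb) on the horizontal axis and 1 line per library. Bar height is the score (the bar at the right marks a score of 10), blue bars are DA and orange bars 5-HT libraries, and the black bar with the arrow is the gene and its start; the region upstream of Drd5 has the highest bar in all 5 libraries.

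The 4 windows held 7, 14 and 12 peaks in the DA libraries and 9 and 5 in the 5-HT libraries. These ranges overlap, since 5-HT replicate 1 lies above DA replicate 1, and the means of 11 ± 3.61 (SD, n = 3) and 7.0 (n = 2) differed by about the spread among the DA libraries. The difference of 4 became 6.0 without DA replicate 1 or without 5-HT replicate 1, 2.5 without DA replicate 2 and 2.0 without 5-HT replicate 2, and it was 10.7 with windows of 50 kb, where the groups no longer overlapped. Per 10000 peaks of the library the values were 1.32, 1.50 and 1.27 in DA and 2.32 and 2.19 in 5-HT neurons. On that scale every DA library lay below both 5-HT libraries (mean 1.37 ± 0.122, n = 3, against 2.25, n = 2). The difference of -0.886 was -0.375 with windows of 50 kb and -0.446 without the weakest 25% of peaks, and the groups then overlapped. For comparison, 4 average windows of protein-coding genes held 2.10, 1.90 and 1.69 peaks per 10000 in the DA libraries and 2.27 and 2.60 in the 5-HT libraries. The receptor windows were therefore below the average in all 3 DA libraries and in 5-HT replicate 2, and just above it in 5-HT replicate 1.

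At an equal number of peaks, the top 22879 by score (as many as the smallest library held), 6 of the 21 regions were still held by any library, against 30.8% of all regions. The count per library became 2, 2 and 1 in DA and 3 and 5 in 5-HT neurons, a difference of DA minus 5-HT of -2.33 in place of 4. This cut is the whole list of 5-HT replicate 2, which kept all 5 of its receptor peaks by construction, while the longer lists were shortened. No conclusion on the number of receptor peaks is therefore drawn from the reversed sign.

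Drd5, the only D1-like gene of the 4, had the most accessible region of the 4 windows. Its window on chromosome 5 (a single-exon gene at chr5:38710748-38713549, plus strand, mm9) held 5 regions, of which 4 lay upstream of the gene. The region chr5:38698839-38699429, intergenic and 11.6 kb upstream of the start, had scores of 10.5, 13.2 and 10.7 in DA replicates 1 to 3 and 6.43 and 4.42 in 5-HT replicates 1 and 2. All 3 DA values were above both 5-HT values. Its percentile was 92.3, 95.7 and 94.6 in the DA libraries and 82.1 and 71.1 in the 5-HT libraries, so that it was among the stronger peaks of each. Its rank from the top was 4064, 3982 and 5069 in DA and 6939 and 6611 in 5-HT neurons, again without overlap and with the DA libraries ahead.

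The mean score of this Drd5 upstream region was 11.5 ± 1.49 (SD, n = 3) in DA and 5.43 (n = 2) in 5-HT neurons (two-sided exact permutation test, p = 0.1). With 3 against 2 libraries this test cannot give a smaller p, and p-values here are not adjusted over the 4 regions open in all 5 libraries or over the 3 scales. By percentile the means were 94.2 ± 1.74 and 76.6 (exact permutation test, p = 0.1), and by rank 4372 ± 605 and 6775 (exact permutation test, p = 0.1). It was also the only one of the 4 regions whose ranks could be compared, since in each of the others at least 1 DA rank lay beyond the 22879 peaks of 5-HT replicate 2. How often this occurs depends on the scale. Of the 16856 regions open in all 5 libraries, every DA value was above both 5-HT values in 81.1% by score, in 51.2% by percentile and in 11.4% by rank. The last share includes regions where DA cannot lead by construction, and among the 10998 regions with all ranks within 22879 it was 16.2%. Among the 4 receptor regions the same held for 4 by score and 3 by percentile, and with so few regions these counts set nothing apart from the shared regions as a whole. It was also the only receptor region kept by all 5 libraries at an equal number of peaks, where 27.0% of the 40691 regions kept by any library were kept by all.

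A second region upstream of Drd5, chr5:38700024-38700598, lay 10.4 kb from the start and had scores of 4.46, 3.83 and 4.19 in the DA libraries, 3.37 in 5-HT replicate 1 and no peak in 5-HT replicate 2. The value of 3.37 is the lowest score of 5-HT replicate 1, shared by 3629 of its peaks, so the region was open in every DA library and at the floor or absent in 5-HT neurons. Nearer to the gene, chr5:38706640-38707023 was open in DA replicate 2 (score 3.54) and DA replicate 3 (3.38), and chr5:38700845-38701173 had the lowest score of DA replicate 3, 3.03. Neither had a peak in 5-HT neurons or in DA replicate 1.

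The Drd5 promoter, chr5:38710296-38711160, was open in all 5 libraries with scores of 4.52, 4.07 and 4.64 in DA and 3.37 and 3.27 in 5-HT neurons. The same region covers an exon of Gm16766, a lincRNA gene on the opposite strand that overlaps the Drd5 start. The annotated start of Gm16766 in the window lies inside the Drd5 gene, beyond the end of this region. The Gm16766 promoter there had no peak in any library. The peak thus lay at the start of Drd5 and not at that of Gm16766, and its part in the activity of either gene was not tested. Again 5-HT replicate 1 was at its lowest score. Every DA score was above both 5-HT scores (4.41 ± 0.297, n = 3, against 3.32, n = 2; exact permutation test, p = 0.1), as was every percentile, at 37.7, 42.2 and 61.5 against 4.68 and 29.6. The difference in mean percentile, 30.0, was 17.5 without 5-HT replicate 1. All 3 DA ranks, 32922, 53816 and 36287, lay beyond the length of the list of 5-HT replicate 2, so ranks give no comparison here. The upstream region therefore outscored the promoter of the same gene in each of the 5 libraries.

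Drd2, the autoreceptor gene, spans 67.6 kb with 8 exons at chr9:49148732-49216282 (plus strand, mm9). Its promoter region, chr9:49148241-49149633, was open in all 5 libraries but weakly, with scores of 3.80, 3.59 and 3.43 in DA and 3.37 and 3.41 in 5-HT neurons. The value of 3.37 was once more the lowest score of 5-HT replicate 1. Percentiles were 17.2, 27.7 and 31.3 in the DA libraries and 4.68 and 37.6 in the 5-HT libraries, so the 5-HT libraries held both the lowest and the highest. The mean percentile was 25.4 ± 7.33 (n = 3) in DA and 21.1 (n = 2) in 5-HT neurons (exact permutation test, p = 0.8). The difference in means was 4.26, and it was -12.2 without 5-HT replicate 1 and 20.7 without 5-HT replicate 2. By score the means were 3.61 ± 0.19 in DA and 3.39 in 5-HT neurons (exact permutation test, p = 0.2), and the groups did not overlap. The DA ranks of 43785, 67262 and 64845 exceed the number of peaks of either 5-HT library, so that both 5-HT ranks had to be ahead, as they were in 29.9% of the 16856 shared regions, and nothing is read from that order. A difference in accessibility of the Drd2 promoter between DA and 5-HT neurons was thus not resolved.

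The DA-restricted region of Drd2, chr9:49173958-49174272, lay in intron 1, 25.4 kb downstream of the start. Its scores were 4.53, 5.80 and 4.70 in the DA libraries, and neither 5-HT library had a peak. All 3 DA scores were above those of the Drd2 promoter in the same library, and the percentiles were 38.0, 68.2 and 62.4. The region ranked 32771, 29594 and 35444 in the DA libraries. These ranks lie beyond the 22879 peaks of 5-HT replicate 2 but within the 38772 peaks of 5-HT replicate 1. The part of list length in the absence of a 5-HT peak was not tested. At an equal number of peaks no receptor region was restricted to the 3 DA libraries, against 6.94% of the regions kept by any library. That share is 0.417 per 6 regions, the number of receptor regions kept, so this count sets nothing apart.

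The other regions of the Drd2 window were each seen in a single library. In intron 1, DA replicate 2 alone had peaks at chr9:49192208-49192336 (score 3.40) and chr9:49194256-49194687 (score 3.45). Within intron 1 of Ankk1, the kinase gene downstream of Drd2 and the only other gene with a start in the window, 5-HT replicate 2 had a peak at chr9:49230106-49230222 (score 2.93) and DA replicate 2 one at chr9:49230735-49230896 (score 3.06). All 4 were in the weaker part of their library, at percentiles of 19.9, 21.9, 6.44 and 0.52.

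Drd3, which encodes a D2-like receptor, spans 60.7 kb with 7 exons at chr16:43762334-43823045 (plus strand, mm9), and was the only gene of the 4 without a promoter peak in any library, as were 34.9% of protein-coding promoters. Drd2 and Drd5 were open at the promoter in all 5 libraries, as were 48.4% of protein-coding promoters, and Drd4 in 3. At an equal number of peaks each of these promoters was open in 1 library only. It was 5-HT replicate 2 for Drd2 and Drd5, whose list is not shortened there, and 5-HT replicate 1 for Drd4. No receptor promoter was open in the 3 DA libraries alone, a class that held 1.98% of promoters. Accessibility at Drd3 was instead found in intron 2, at chr16:43801896-43802403, 39.8 kb downstream of the start. The score there was 7.90, 6.83 and 4.62 in DA replicates 1 to 3 and 4.36 and 3.29 in 5-HT replicates 1 and 2. DA replicate 3 was close to 5-HT replicate 1, and the groups did not overlap.

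By percentile this Drd3 intronic region was at 80.7, 76.3 and 61.3 in DA and 46.7 and 30.8 in 5-HT neurons (mean 72.8 ± 10.2, n = 3, against 38.8, n = 2; exact permutation test, p = 0.1). By score the means were 6.45 ± 1.67 and 3.82 (exact permutation test, p = 0.2). Its rank in DA replicate 3, 36499, lay beyond the list of 5-HT replicate 2, so the groups are not compared by rank here either. At an equal number of peaks the region was kept by 4 libraries and lost from DA replicate 3.

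The other Drd3 regions were sparse. In intron 1, chr16:43769674-43769773 had a score of 4.63 in DA replicate 1 only, and in intron 2, chr16:43800323-43800496 had a score of 3.59 in 5-HT replicate 1 only. Upstream by 8.18 kb, chr16:43753975-43754339 had the lowest score of DA replicate 3, 3.03. Downstream of the gene, chr16:43827685-43827859 had scores of 3.10 in DA replicate 3 and 3.86 in 5-HT replicate 1. Each of these 4 was absent from 3 or more of the 5 libraries, and none separated the cell types. The annotated starts of the miRNA gene CT025520.1 and of SNORA17, which also lie in the window, had no peak.

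Drd4, a compact D2-like gene of 4.43 kb and 4 exons at chr7:148477929-148482362 (plus strand, mm9), was the least evenly detected. Its promoter region, chr7:148477884-148478420, was open in DA replicate 2 (score 4.30), DA replicate 3 (3.16) and 5-HT replicate 1 (4.28), with no peak in DA replicate 1 or 5-HT replicate 2. Each cell type thus had a library with and a library without the peak. No region of the whole Drd4 window had a peak in DA replicate 1 or 5-HT replicate 2, although the former held more peaks than 5-HT replicate 1. Further into the gene, a region over an exon, chr7:148479812-148480358, had a peak in DA replicate 2 alone (score 4.26).

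The remaining Drd4 regions belonged to the surroundings of the gene. The Sct promoter, chr7:148464666-148465425, was open only in DA replicate 2 (score 5.35) and DA replicate 3 (3.76). DA replicate 2 also had a peak in intron 7 of Deaf1, at chr7:148501976-148502076 (score 4.20), and 5-HT replicate 1 had one at its lowest score, 3.37, at chr7:148463769-148463922, 14.1 kb upstream of Drd4. The promoter of Cdhr5, the other protein-coding gene starting in the window, had no peak. None of the 5 regions was present in all libraries of a cell type.

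Over regions open in any library, the density of regions was higher at the 2 short genes than at the 2 long ones. Drd4 and Drd5 had 1.13 and 1.17 regions per 10 kb of window, against 0.558 for Drd2 and 0.496 for Drd3, and the median of 22380 protein-coding genes was 0.591. Drd4 and Drd5 were above 84.1% and 85.6% of genes and Drd2 and Drd3 above 47.5% and 43.1%. For Drd5 the peaks per 10 kb were 0.701, 0.935 and 1.17 in DA and 0.701 and 0.467 in 5-HT neurons, above the median of all genes in each library (0.306, 0.481, 0.431, 0.234 and 0.171). For Drd4 they were 0, 0.90 and 0.45 in DA and 0.45 and 0 in 5-HT neurons, so that its density was clearly above the median only in DA replicate 2 and 5-HT replicate 1, and close to it in DA replicate 3.

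Across the windows, the median percentile of the peaks was 38.0, 43.7 and 37.4 in the DA libraries and 17.7 and 30.8 in the 5-HT libraries. Each DA library was above both 5-HT libraries (39.7 ± 3.48, n = 3, against 24.3, n = 2), but the groups overlapped with windows of 10 kb and without the weakest 25% of peaks. In 5-HT replicate 1, 4 of the 9 receptor peaks were at the lowest score of the library, against 9.36% of all its peaks. The difference in medians of 15.4 was 8.87 without 5-HT replicate 1, and over the other windows, thresholds and region choices it ranged from 9.24 (10 kb) to 43.0 (equal number of peaks). At the equal number the medians rest on only 2, 2 and 1 peaks in DA and 3 and 5 in 5-HT libraries. A percentile also moves with the number of weak peaks in a library, and its part in the difference in medians was not tested.

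**Figure D2:**
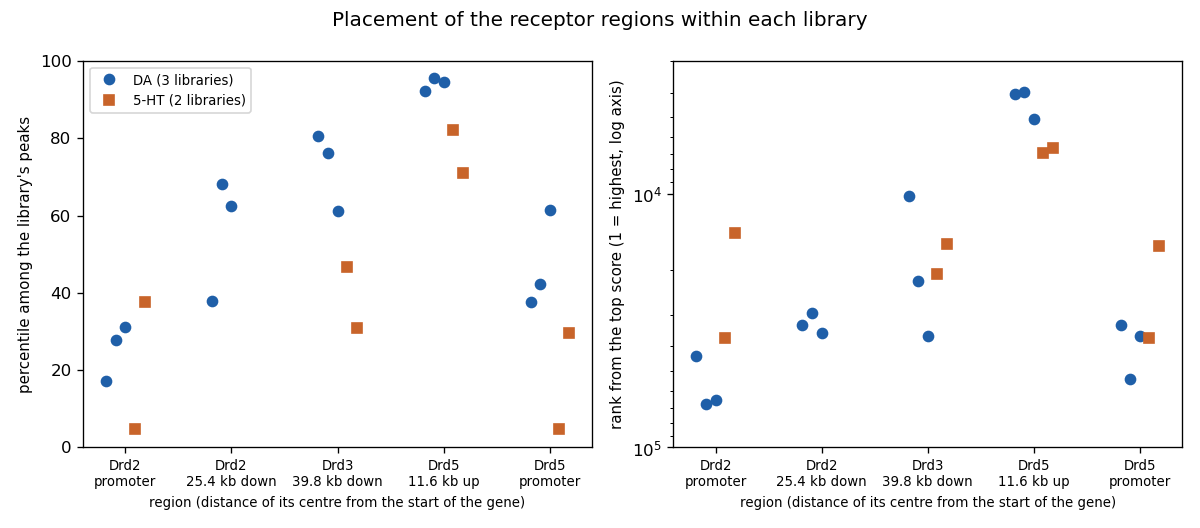
Percentile among the peaks of the library (left) and rank from the top score (right, log axis, 1 is the highest) of the 4 regions open in all 5 libraries and of the Drd2 intron 1 region, which has no 5-HT peak. Points are libraries (blue circles DA, n = 3; orange squares 5-HT, n = 2); the region 11.6 kb upstream of Drd5 has all DA points above both 5-HT points in both panels, and a rank cannot exceed the number of peaks of its library, which is smaller in 5-HT.

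Sequences are given for the 3 distal regions on which the comparisons rest, as the central 300 bases on the plus strand of mm9, 5′ to 3′, with motif matches in capitals. Motifs searched on both strands were AAAGGTCA (the NBRE bound by Nr4a receptors), TAATTA (homeodomain), TAATCC (bicoid-type homeodomain), TGTTTAC (forkhead), GGGCGG (GC box), TGACGTCA (cAMP response element), CAGCTG (E-box) and ACAATG (SOX). In the central 300 bases of 131939 regions these were present in 2.67%, 9.29%, 10.4%, 5.57%, 12.8%, 0.496%, 25.7% and 15.3%, in that order. The windows are chr9:49173965-49174264 (Drd2 intron 1), chr16:43801999-43802298 (Drd3 intron 2) and chr5:38698984-38699283 (upstream of Drd5).
Drd2 intron 1: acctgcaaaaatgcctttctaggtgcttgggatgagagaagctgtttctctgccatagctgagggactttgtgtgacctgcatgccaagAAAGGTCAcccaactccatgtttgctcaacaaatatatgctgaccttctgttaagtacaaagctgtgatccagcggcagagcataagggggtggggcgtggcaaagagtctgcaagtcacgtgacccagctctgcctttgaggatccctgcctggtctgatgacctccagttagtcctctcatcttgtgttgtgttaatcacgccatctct
Drd3 intron 2: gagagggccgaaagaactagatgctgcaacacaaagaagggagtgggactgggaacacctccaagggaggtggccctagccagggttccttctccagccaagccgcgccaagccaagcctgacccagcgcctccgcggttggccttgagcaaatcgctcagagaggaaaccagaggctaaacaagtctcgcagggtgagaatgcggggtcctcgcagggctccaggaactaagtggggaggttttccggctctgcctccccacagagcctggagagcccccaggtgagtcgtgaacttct
Drd5 upstream: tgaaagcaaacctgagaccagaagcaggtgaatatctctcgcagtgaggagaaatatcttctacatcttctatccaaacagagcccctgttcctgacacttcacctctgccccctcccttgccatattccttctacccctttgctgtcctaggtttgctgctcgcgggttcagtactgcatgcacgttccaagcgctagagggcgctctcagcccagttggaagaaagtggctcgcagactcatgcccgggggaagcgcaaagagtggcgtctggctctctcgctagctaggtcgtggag

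The Drd2 intronic window held 1 copy of AAAGGTCA and no other motif of the 8. That motif was present in 4.95% of the 17616 regions open in the 3 DA libraries and no 5-HT library and in 0.783% of 16854 regions open in all 5. The contrast is not particular to this motif. In the same order, TAATTA was present in 12.8% and 3.69%, TAATCC in 14.4% and 5.26%, TGTTTAC in 7.82% and 2.73%, CAGCTG in 32.2% and 20.7% and ACAATG in 14.2% and 9.46%. The other way went GGGCGG (7.27% and 46.6%) and TGACGTCA (0.312% and 1.63%). Median GC was 47.7% and 60.3%, and its part was not tested. A match of 8 letters describes the sequence and does not show that a factor was bound. The Drd3 and Drd5 windows held none of the 8 motifs, which says only that these letters are absent from the central 300 bases. Both had more CpG than the median region, with 12 CpG each and 60.7% and 54.7% GC, against 4 CpG at Drd2 intron 1 and a median of 4 CpG and 48.3% GC over all regions. Regions open in all 5 libraries had a median of 18 CpG and 60.3% GC.

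The promoters of the 4 genes are shown because Drd3 stood apart from the others in having no peak there. All 4 were found in RefSeq (GRCm38.p6), and each sequence matched mm9 exactly and once, on the plus strand. The 250 bases before the RefSeq start are chr9:49148258-49148507 (Drd2), chr16:43762084-43762333 (Drd3), chr7:148477667-148477916 (Drd4) and chr5:38710498-38710747 (Drd5) in mm9. The RefSeq start of Drd2 lies 224 bp and that of Drd4 12 bp upstream of the GENCODE start, and those of Drd3 and Drd5 coincide with it.
Drd2 promoter: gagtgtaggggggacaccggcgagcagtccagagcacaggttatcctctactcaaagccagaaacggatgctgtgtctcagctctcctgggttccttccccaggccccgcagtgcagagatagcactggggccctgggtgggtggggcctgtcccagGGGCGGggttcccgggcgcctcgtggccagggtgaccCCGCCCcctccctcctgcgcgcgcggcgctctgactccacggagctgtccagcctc
Drd3 promoter: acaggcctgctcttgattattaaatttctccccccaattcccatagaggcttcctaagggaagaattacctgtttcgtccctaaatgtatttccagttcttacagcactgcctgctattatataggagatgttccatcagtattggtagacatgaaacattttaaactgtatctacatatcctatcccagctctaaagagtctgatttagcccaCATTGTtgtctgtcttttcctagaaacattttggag
Drd4 promoter: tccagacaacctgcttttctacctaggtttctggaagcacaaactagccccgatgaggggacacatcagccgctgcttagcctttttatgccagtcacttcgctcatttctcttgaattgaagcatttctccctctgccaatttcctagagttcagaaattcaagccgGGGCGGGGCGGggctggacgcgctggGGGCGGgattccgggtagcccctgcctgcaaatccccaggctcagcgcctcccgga
Drd5 promoter: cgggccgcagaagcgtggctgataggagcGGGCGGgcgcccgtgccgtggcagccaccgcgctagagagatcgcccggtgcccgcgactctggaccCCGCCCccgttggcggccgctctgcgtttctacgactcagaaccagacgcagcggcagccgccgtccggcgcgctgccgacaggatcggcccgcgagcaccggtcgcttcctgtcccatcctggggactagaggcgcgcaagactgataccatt

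Capitals again mark motif matches. Drd2 and Drd5 each held 2 copies of GGGCGG and Drd4 held 3, of which 2 overlap by 1 base, while Drd3 held none and 1 copy of ACAATG. The open regions of Drd2 and Drd5 cover the whole sequence shown. That of Drd4 starts at chr7:148477884, downstream of all 3 copies, and covers only the end of the sequence. Among 27018 RefSeq promoters the GC box GGGCGG was present in 32.9% and the SOX motif ACAATG in 11.0%. The number of CpG was 15 at Drd2, 1 at Drd3, 12 at Drd4 and 35 at Drd5, and GC was 68.8%, 39.2%, 56.8% and 71.2%. Promoters of genes open in all 5 libraries had a median of 17 CpG and held GGGCGG in 62.2% (n = 7620), and those of genes without a promoter peak had a median of 2 CpG and held it in 12.1% (n = 4685). The CpG-poor Drd3 promoter was thus the one without a peak, and the CpG-rich Drd5 promoter was open in all 5 libraries. Drd2, with 15 CpG, was also open in all 5 and Drd4, with 12, in 3, and a relation between CpG and peaks was not tested.

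Genes with the most similar promoter profile were found by Euclidean distance between the percentiles of the promoter peak in the 5 libraries, with 0 for no peak. For Drd2 these were Fam19a4 (distance 16.6), Adamts4 (17.5) and Alox5ap (19.8). For Drd4 they were Tnfsf11 (9.52), Irx1 (14.6) and 3222401L13Rik (15.1), and for Drd5 they were Birc3 (8.84), Itga2 (12.8) and Grina (14.0). Drd3 had no promoter peak to compare.

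Genes that act with the dopamine receptors were mostly open in both DA and 5-HT libraries. Of 49 genes of dopamine receptor signalling (Drd1a, G protein subunits, adenylyl cyclases, phosphodiesterases, kinases, arrestins and potassium channels), 40 had a promoter peak in all 5 libraries, whereas 48.4% of all protein-coding promoters did. In the 3 DA libraries only, 0 of the 49 had one, against 1.98% of all protein-coding promoters, a share so small that this 0 sets nothing apart. A promoter peak was present for 45, 47 and 45 of them in the DA libraries and 45 and 40 in the 5-HT libraries. Gnb5 and Ppp1r1b, the latter encoding the phosphoprotein DARPP-32, had no promoter peak in any library, as did 34.9% of all protein-coding promoters, and 7 genes, Drd1a among them, were open in some. Drd1a, the other D1-like receptor gene, had promoter scores at chr13:54150463-54151213 of 5.83, 4.92 and 6.45 across DA replicates and 4.45 for 5-HT replicate 1, with no peak in 5-HT replicate 2. Among 14 serotonin receptor genes, 6 were open in all 5 libraries, Htr2b and Htr3b in none and the other 6 in some, with 10, 12 and 10 open in DA and 9 and 7 in 5-HT neurons. Promoters open in all 5 libraries were thus 2 of 4 for Drd2 to Drd5, 6 of 14 for serotonin receptors and 40 of 49 for the signalling genes, a difference that was not tested.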

How the data were processed

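ATAC-seq peak lists of 3 DA and 2 5-HT libraries were used, and the RNA-seq of the series was not analysed here. The authors trimmed and checked reads (Trimmomatic, FastQC), aligned them with Bowtie2 (mm9), discarded duplicates using Picard, ran MACS2 callpeak and joined peaks under 100 bp apart using BEDOPS; versions and threshold are not given in the sources used here. The deposited score of each of 131942 regions in each library has no named scale, and 0 stands for no peak. A misspelled chromosome name on 1 line was corrected. Genes and promoter regions came from GENCODE vM1 on NCBIM37, the same assembly as mm9, and promoter sequences from RefSeq (GRCm38.p6).

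Regions overlapping a gene body or the 20 kb on either side by at least 1 bp were assigned to it, and regions overlapping the 1 kb before or 100 bp after a start were called promoter regions. The receptors, the genes that start in their windows, all regions of each window, the 3 genes nearest in promoter profile and, from the lists, genes open in one cell type or in no library were named by rule. The members and lists were chosen with earlier results of these data known, so values pooled over the 4 windows are given without a p-value. Single regions were compared by two-sided exact permutation tests over libraries. Alternatives were the window, the overlap, the promoter definition, an equal number of peaks, a stricter threshold, merging, the replicate block and leaving out each library. Chosen after seeing the data were rank in place of percentile, the equal number of peaks for promoter counts, and, for single regions, the deposited score and leaving out each library. Scripts were tested on simulated data and used Python 3.11.15, NumPy 2.4.6, pandas 2.3.3, SciPy 1.17.1 and matplotlib 3.10.9.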

Additional observations from a re-analysis of the deposited data

How the results depend on the processing

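Of 109 values recomputed under an alternative, 93 kept their direction or nearly their count, though not always their size, 10 counts moved and 6 values reversed. Not all of the 93 could differ. Each receptor gene has 1 annotated start, so taking only the start of the longest transcript repeated the main promoter definition. Requiring the centre of a region inside the window returned the main values, and merging nearby peaks nearly so. Over the planned windows, thresholds and region choices, the difference in peaks (4) went from 2.0 (gene body) to 10.7 (50 kb) apart from the reversal below, the difference per 10000 (-0.886) from -1.02 (equal number) to -0.375 (50 kb), and that in median percentile (15.4) from 9.24 (10 kb) to 43.0 (equal number). The value of 43.0 rests on DA medians of only 2, 2 and 1 peaks. Leaving out 1 library gave 2.0 to 6.0, -0.955 to -0.819 and 8.87 to 22.0. With each library limited to its top 22879 peaks, the difference in peaks in the 4 windows (DA minus 5-HT) reversed to -2.33, the regions open in 3 DA and no 5-HT libraries fell to 0 and those open in all 5 to 1, and the promoters of Drd2, Drd4 and Drd5 (added after seeing the data) were each open in 1 library. Here the lists of the larger libraries are shortened by construction. Without the lowest-scoring 25% of peaks, 2 of 13 regions were open in 3 DA and no 5-HT libraries and 2 in all 5 (15.5% and 14.4% of all regions); with windows of 50 kb the former count was 3 of 35 (13.4%), and leaving out 1 library gave 1 to 3 (14.5% to 25.5%). Rank in place of percentile, chosen after seeing the data and signed so that positive means DA ahead, reversed the median of the windows (-24204), the Drd2 promoter (-33011), the Drd3 intronic region (-4657) and the Drd5 promoter (-14479), and kept DA ahead at the Drd5 upstream region (2403). In each of the 4 reversals at least 1 DA rank lies beyond the 22879 peaks of 5-HT replicate 2, so nothing is read from their sign. For single regions, also added later, leaving out 1 library gave percentile differences of -12.2 (without 5-HT replicate 1) to 20.7 at the Drd2 promoter and 17.5 (without 5-HT replicate 1) to 42.5 at the Drd5 promoter, and the cause was not tested. With the replicate number as a block (paired), the differences were 3.5 peaks, -0.839 peaks per 10000 and 16.6 percentile points. The correlations of same-numbered libraries were -0.0125 and -0.0146 with only 2 pairs. For each DA library the values with the 2 5-HT libraries were equal and opposite. These correlations therefore cannot show whether the libraries share more than a number. Read depth is unknown, and a region without a peak may be open below the threshold.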
